A study of Mus musculus with 6 samples.

Results

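The genes described here are the 10 of a named set of telomerase and telomere protection genes: Tert, Dkc1, Rtel1, Terf1, Terf2, Terf2ip, Tinf2, Acd, Pot1a and Pot1b. They were found by symbol through the NCBI Entrez Gene number of their probe sets. Each of the 10 had 1 probe set, among 23185 named genes and 25206 probe sets in all. The arrays compare hematopoietic stem cells (HSCs) of Merit40-/- mice with those of WT mice, 3 arrays per genotype. Both genotypes were young, and from both the HSCs were taken fresh from adult bone marrow, without treatment, as CD150+CD48- cells of the LSK gate (lineage-negative, Sca-1+, c-Kit+), in a double sort. The labels give neither the sex of the mice, nor how the Merit40 allele was made, nor how many mice went into an array, so the tests measure the spread between these arrays. Values are log2 expression after RMA, which equalises the distribution of all arrays. A difference is Merit40-/- minus WT on that log2 scale, and 1 log2 unit is 2-fold.

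Telomeres are the repeated TTAGGG ends of chromosomes. The shelterin complex coats them and keeps them from being read as broken DNA, and telomerase, a reverse transcriptase with its own RNA template, adds repeats that replication fails to copy. In people, inherited variants of several of these genes cause dyskeratosis congenita, a short-telomere disease with bone marrow failure, and mice without telomerase lose HSC function over generations. Merit40, encoded by Babam1, belongs to the BRCA1-A complex, which binds ubiquitin chains at DNA breaks, and to the related BRISC complex. The comparison asks whether HSCs without this subunit carry another transcript level of the genes that build and guard chromosome ends.

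Babam1 checked the labels. It read 4.29, 3.87 and 4.01 in Merit40-/- HSCs, against 7.91, 8.04 and 8.05 in WT HSCs. It fell by 3.94 (SE 0.14, adjusted p = 5.04e-05 with limma).

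No telomerase or shelterin gene differed between the genotypes beyond the spread of the arrays. Of the 10 genes, 0 passed an adjusted p of 0.05 in limma and 0 had an unadjusted p under 0.05, against 0.00431% (Babam1 alone) and 4.22% of all 23185 genes. For 0 of the 10 did the arrays of the genotypes separate, where 9.05% of all genes did. Their differences ran from -0.25 (Terf1) to 0.29 (Rtel1), with 6 higher and 4 lower in Merit40-/-. The median difference was 0.02, beside 0.01 over all genes, and 51.5% of all genes had a difference above 0.

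The arrays also bound how large a difference could be. The 95% interval of the difference, from limma, included 0 for all 10 genes and lay within 2-fold in either direction for all 10, as it did for 96.4% of all genes. The bounds farthest from 0 were the upper one of Rtel1, at 0.64 or 1.55-fold higher, and the lower one of Terf1, at -0.62 or 1.54-fold lower. All 10 genes had a mean level above the median of all genes (4.93), from 5.64 for Tert to 8.77 for Dkc1. RMA values compress differences of weak signals, so the interval of Tert, the member closest to that median, bounds the array reading more firmly than the transcript. Levels of different probe sets depend on their probes and are not compared as amounts of transcript.

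**Figure D1:**
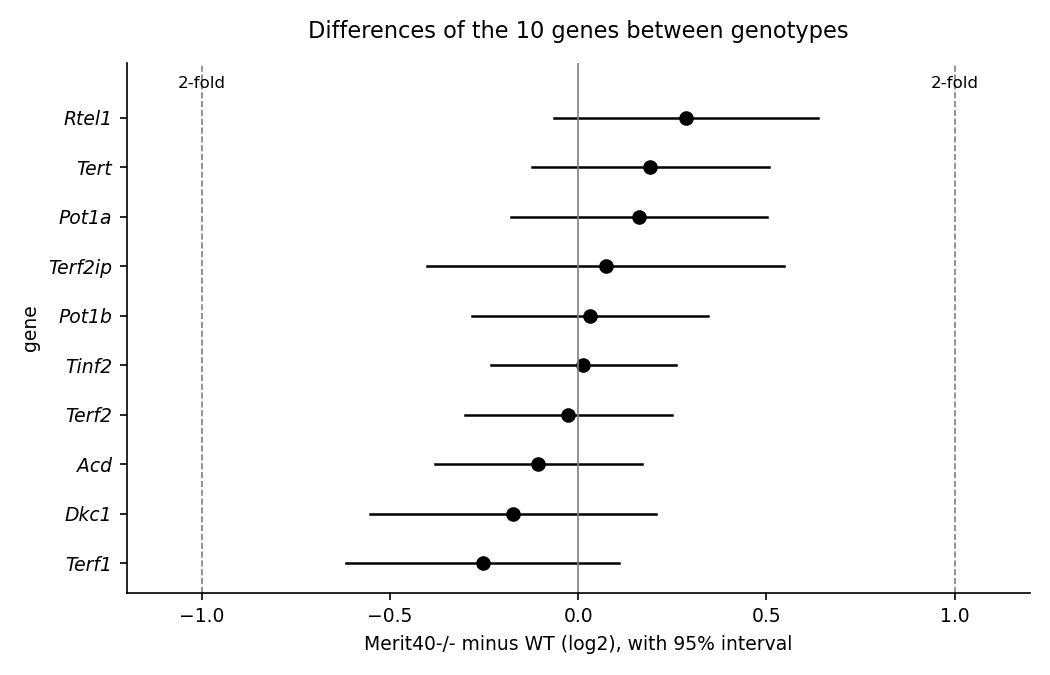
Difference between Merit40-/- and WT HSCs (log2, x axis) for each of the 10 genes (y axis), as the limma estimate (point) with its 95% interval (line), from 3 arrays per genotype. Every interval crosses 0, and none reaches the dashed lines at 2-fold.

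Tert encodes the catalytic subunit of telomerase. It read 5.79, 5.74 and 5.67 in Merit40-/- HSCs, against 5.36, 5.77 and 5.49 in WT HSCs. All 3 Merit40-/- arrays lay above the WT mean, but WT replicate 2 lay above Merit40-/- replicates 2 and 3. Tert averaged 5.73 ± 0.06 in Merit40-/- and 5.54 ± 0.21 in WT (SD, n = 3 each), a difference of 0.19 (SE 0.14, 95% interval -0.12 to 0.51, adjusted p = 0.999 with limma). It came to 0.10 without WT replicate 1 and to 0.31 without WT replicate 2.

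Dkc1 encodes dyskerin, the pseudouridine synthase that binds and stabilises telomerase RNA and also serves the box H/ACA small nucleolar RNAs. It read 8.80, 8.35 and 8.91 in Merit40-/- HSCs, against 8.78, 8.99 and 8.82 in WT HSCs. Merit40-/- replicate 2 stood below the other 5 arrays, which lay close together. The difference of -0.17 (SE 0.17, 95% interval -0.55 to 0.21, adjusted p = 0.999 with limma) came to -0.01 without that array.

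Rtel1, a DNA helicase that unwinds telomere loops and other secondary structures ahead of replication, had the largest positive difference of the 10. It read 6.207, 6.334 and 6.096 in Merit40-/- HSCs, against 6.001, 6.125 and 5.653 in WT HSCs. The genotypes overlapped in a single pair of arrays, since WT replicate 2 lay just above Merit40-/- replicate 3. Rtel1 averaged 6.21 ± 0.12 in Merit40-/- and 5.93 ± 0.24 in WT (SD, n = 3 each). Its difference of 0.29 (SE 0.15, unadjusted p = 0.097 and adjusted p = 0.999 with limma) came to 0.15 without WT replicate 3, the lowest array. Without WT replicate 2 it came to 0.38, with an unadjusted p of 0.0492 and an adjusted p of 0.996 in limma.

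Terf1 and Terf2 encode the paralogous proteins TRF1 and TRF2, which bind the double-stranded repeats as dimers. TRF1 aids replication through the repeats, and TRF2 holds the end in a loop and blocks the ATM kinase and end joining. Terf1 read 8.10, 7.63 and 7.71 in Merit40-/- HSCs, against 8.04, 7.93 and 8.22 in WT HSCs. Within Merit40-/-, replicates 2 and 3 lay below all WT arrays, while replicate 1 lay within the WT range. The difference of Terf1 was -0.25 (SE 0.16, 95% interval -0.62 to 0.11, unadjusted p = 0.146 and adjusted p = 0.999 with limma). It came to -0.40 without Merit40-/- replicate 1 (unadjusted p = 0.0278, adjusted p = 0.965 with limma) and to -0.16 without Merit40-/- replicate 2.

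Terf2 read 7.89, 7.69 and 7.62 in Merit40-/- HSCs, against 7.72, 7.78 and 7.78 in WT HSCs. The Merit40-/- arrays lay on both sides of the narrow WT range, and the difference was -0.03 (SE 0.12, 95% interval -0.30 to 0.25). As a direct comparison of the paralogs, the log2 value of Terf1 minus that of Terf2 was taken on each array. It averaged 0.08 ± 0.14 in Merit40-/- and 0.31 ± 0.15 in WT (SD, n = 3 each). The genotypes overlapped in this measure too, and its difference of -0.23 had p = 0.2 in an exact 2-sided permutation test, where 3 arrays against 3 cannot give less than 0.1.

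Terf2ip encodes RAP1, which is carried to telomeres by TRF2 and represses recombination there. It was the most scattered of the 10 genes, at 6.70, 6.62 and 7.21 in Merit40-/- HSCs, against 6.46, 7.06 and 6.79 in WT HSCs. The arrays of each genotype spanned 0.59 log2 units, and the difference of 0.07 (SE 0.21, 95% interval -0.40 to 0.55) had the widest interval of the set. Its sign turned when single arrays were left out, to -0.11 without Merit40-/- replicate 3 and -0.08 without WT replicate 1.

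Tinf2 and Acd encode the bridge of shelterin. TIN2, from Tinf2, ties TRF1 and TRF2 together, and TPP1, from Acd, joins TIN2 to the POT1 proteins and recruits telomerase. Tinf2 was the steadiest gene of the set, at 6.76, 6.82 and 6.81 in Merit40-/- HSCs, against 6.76, 6.78 and 6.81 in WT HSCs. All 6 readings lay within 0.06 log2 units, and the difference was 0.01 (95% interval -0.23 to 0.26 with limma). The residual SD of Tinf2 was 0.03, beside a median of 0.17 for the 10 genes and 0.18 for all genes. limma draws each variance toward that of all genes, so this interval is wider than the scatter of Tinf2 itself.

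Acd read 8.23, 8.16 and 8.35 in Merit40-/- HSCs, against 8.37, 8.25 and 8.44 in WT HSCs. Merit40-/- replicate 2 was lowest and WT replicate 3 highest, and the genotypes overlapped in a single pair of arrays, Merit40-/- replicate 3 above WT replicate 2, and the difference was -0.11 (SE 0.12, 95% interval -0.38 to 0.17).

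Pot1a and Pot1b are the mouse counterparts of the single human gene POT1, whose protein covers the single-stranded telomere overhang. In mice, POT1a mainly restrains ATR signalling at telomeres, and POT1b limits resection of the overhang. Loss of Pot1b together with reduced telomerase causes marrow failure in mice. Pot1a read 8.52, 8.63 and 8.28 in Merit40-/- HSCs, against 8.11, 8.47 and 8.37 in WT HSCs. WT replicate 1 was lowest and Merit40-/- replicate 2 highest, and the difference was 0.16 (SE 0.15, 95% interval -0.18 to 0.50, adjusted p = 0.999 with limma). Without WT replicate 1 it came to 0.06.

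Pot1b read 8.37, 8.15 and 8.22 in Merit40-/- HSCs, against 8.39, 8.23 and 8.03 in WT HSCs. The WT arrays enclosed the Merit40-/- arrays, and the difference was 0.03 (SE 0.14, 95% interval -0.28 to 0.35). Pot1a minus Pot1b, taken on each array, averaged 0.23 ± 0.22 in Merit40-/- and 0.10 ± 0.33 in WT (SD, n = 3 each). The copies thus did not differ detectably in their genotype difference (0.13, exact 2-sided permutation p = 0.7, smallest possible 0.1). Transcripts of both copies are related in sequence, and how far their probes tell them apart was not tested.

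**Figure D2:**
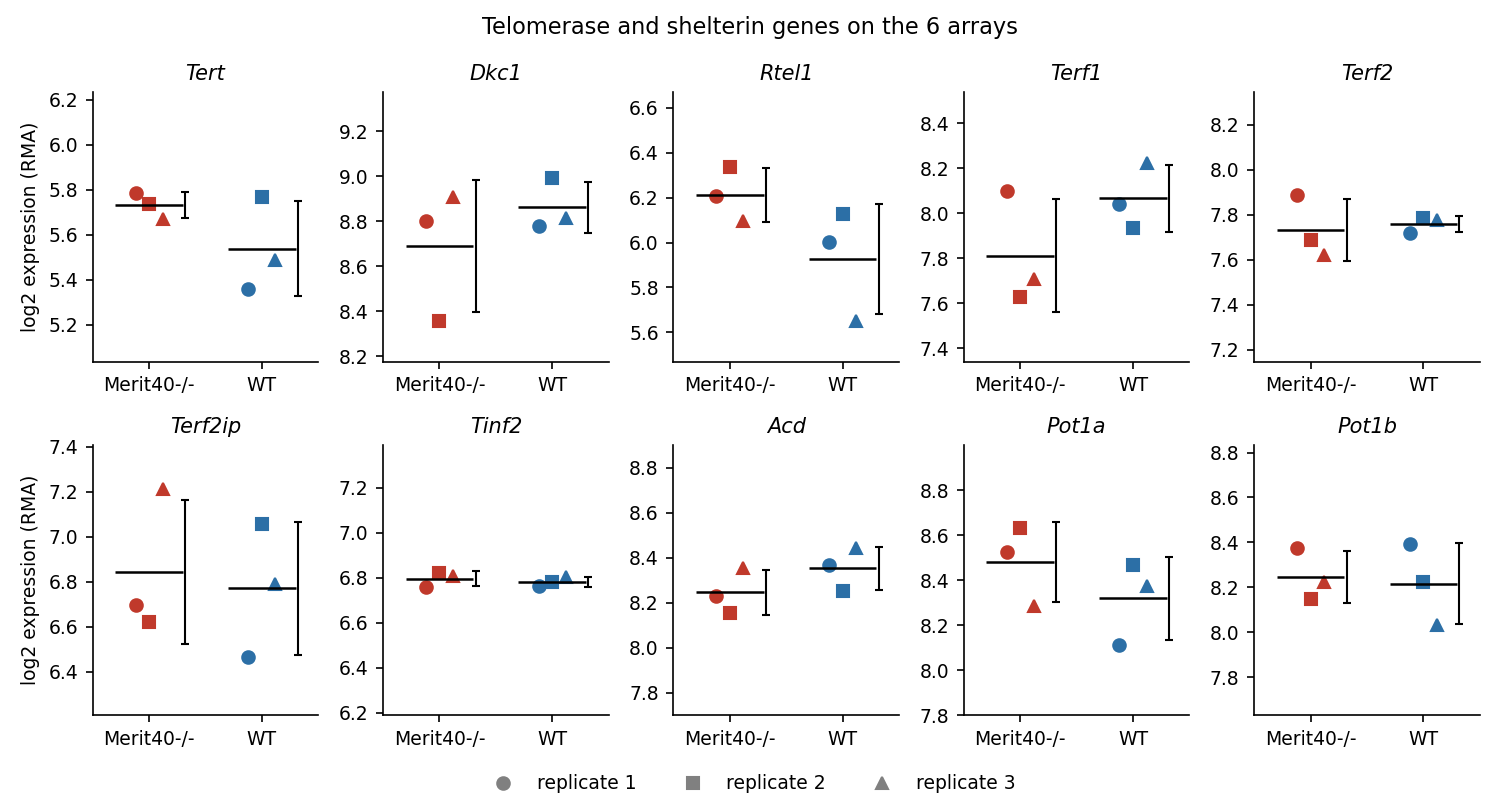
Log2 expression after RMA (y axis, 1.2 log2 units in every panel) of the 10 genes on the 3 Merit40-/- and 3 WT arrays, with symbols for the replicate number, the mean as a line and the SD as a bar beside it. The genotypes overlap in every panel; Rtel1 and Acd overlap in 1 pair of arrays each, and Tinf2 hardly varies.

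The upstream sequences of Rtel1, which had the largest positive difference, and of the Pot1 paralogs are shown because these genes share a GC box, the letters GGGCGG or CCGCCC, which Sp family factors can bind. Each run is the 250 bases before the transcript start in RefSeq (GRCm38.p6), 5′ to 3′ on the strand of the gene, with the GC box in capitals. The Rtel1 run is chr2:181319474-181319723 on the plus strand, with the box starting 39 bases before the start. The Pot1a run is chr6:25809219-25809468 on the minus strand (117 bases before the start), and the Pot1b run is chr17:55712637-55712886 on the minus strand (8 bases before the start).
Rtel1: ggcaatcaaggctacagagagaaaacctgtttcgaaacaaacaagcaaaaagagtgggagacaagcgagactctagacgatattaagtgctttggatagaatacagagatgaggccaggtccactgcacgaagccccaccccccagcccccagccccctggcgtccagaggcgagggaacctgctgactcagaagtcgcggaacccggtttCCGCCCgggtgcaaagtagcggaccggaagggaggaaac
Pot1a: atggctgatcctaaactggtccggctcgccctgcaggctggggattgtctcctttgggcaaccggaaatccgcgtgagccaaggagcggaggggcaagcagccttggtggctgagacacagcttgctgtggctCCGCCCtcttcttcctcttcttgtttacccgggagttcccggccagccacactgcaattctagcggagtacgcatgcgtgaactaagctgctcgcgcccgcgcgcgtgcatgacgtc
Pot1b: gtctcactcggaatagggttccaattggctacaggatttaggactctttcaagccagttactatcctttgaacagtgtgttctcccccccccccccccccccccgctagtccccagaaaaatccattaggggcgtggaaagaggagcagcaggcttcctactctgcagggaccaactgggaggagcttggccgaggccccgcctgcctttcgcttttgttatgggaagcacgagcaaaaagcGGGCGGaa
Of the 10 genes, 9 had at least 1 such window, and Pot1b had 2, of which the first is shown. A gene was counted when any of its windows matched, whereas the shares are of single windows. A GC box on either strand was present in 4 of the 9 (Tert, Rtel1, Pot1a and Pot1b) and in 32.7% of all 32851 windows. The E-box CACGTG, to which MYC can bind, was in 0 of the 9 and in 6.02% of all windows. The telomere repeat unit TTAGGG or its complement CCCTAA was, among the 9 genes, only in Pot1b, in the window shown, and in 9.32% of all windows. These are matches of letters in the reference strain and not measured binding sites.

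Across arrays, no array carried the set as a whole up or down. Relative to the WT mean of each gene, the median of the 10 genes was 0.08, -0.07 and 0.02 in Merit40-/- replicates 1, 2 and 3, against -0.03, 0.08 and 0.02 in WT replicates 1, 2 and 3. Merit40-/- replicate 2 was the most extreme array, holding the highest reading of 3 genes and the lowest of 3, among them Dkc1 at -0.51 and Rtel1 at 0.41 from their WT means. For 8 of the 10 genes the genotype difference was smaller than the range of the arrays within either genotype, and for all 10 it was smaller than the WT range. The exceptions in Merit40-/- were Tert and Rtel1, whose 3 Merit40-/- readings lay within 0.12 and 0.24.

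**Figure D3:**
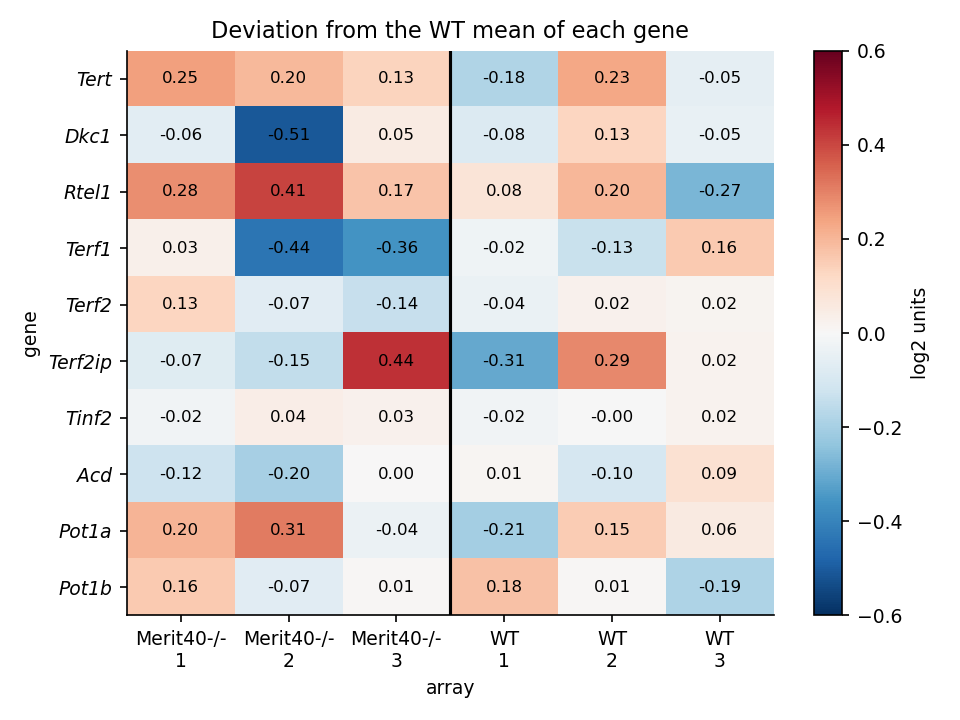
Deviation of each gene (rows) on each array (columns, Merit40-/- left of the line) from the mean of the 3 WT arrays of that gene, in log2 units, with the value printed and coloured from blue (low) to red (high). High and low values occur in both genotypes. The farthest from 0 is -0.51 for Dkc1 on Merit40-/- replicate 2, and the farthest in WT is -0.31 for Terf2ip on replicate 1. Taking deviations from the WT mean centres the WT values on 0.

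Slamf1 and Kit, markers of the sort, were present in both genotypes. Each Merit40-/- array, and WT replicate 1, was high in some markers of other cell types. Ly6a, which encodes the sort marker Sca-1, was not among the measured genes. Slamf1 (CD150) read 7.99 to 8.63 in Merit40-/- and 7.71 to 8.37 in WT, and Kit read 10.99 to 11.16 in Merit40-/- and 10.93 to 10.99 in WT. Cd48, the negative marker of the sort, read 4.99 to 5.88 in Merit40-/- and 5.03 to 5.64 in WT. Its mean lay at percentile 54.9 of all genes. The mean level of 12 skeletal muscle markers was 8.17 on Merit40-/- replicate 1, against 4.605 and 4.826 on the other Merit40-/- arrays and 4.525 to 4.725 in WT. The mean level of 10 osteoclast markers was 5.56 on Merit40-/- replicate 3, against 4.606 and 4.623 on the other Merit40-/- arrays and 4.485 to 4.601 in WT. Ctsk (7.94) and Acp5 (7.91) carried most of it, while Dcstamp, Calcr, Itgb3 and Clcn7 were not above their WT range there. The other marker lists had median differences of 0.15 for 13 HSC genes, -0.03 for 11 lymphoid, 0.08 for 12 granulocyte and monocyte, -0.29 for 8 erythroid and -0.28 for 10 megakaryocyte genes. The mean of the erythroid genes from the WT mean was 0.44, -0.09 and -0.35 in WT replicates 1, 2 and 3. In Merit40-/- replicates 1, 2 and 3 it was -0.46, -0.08 and -0.49, so WT replicate 1 alone was high. Hbb-bs (7.64), Alas2 (6.32) and Slc4a1 (6.92) were highest on that array, while Gata1, Epor and Tfrc were not. The mean of the megakaryocyte genes from the WT mean did not overlap, at -0.36 to -0.19 in Merit40-/- and -0.04 to 0.06 in WT. Of these 10 genes, 8 had a lower and 2 a higher value, Gp9 at 0.09 and Vwf at 0.14. By itself only 1, Itga2b at -0.53, did not overlap, where 4.22% of all genes were lower without overlap. The mean of the granulocyte and monocyte genes from the WT mean was 0.38, 0.34 and -0.08 in Merit40-/- replicates 1, 2 and 3, against -0.14 to 0.18 in WT. Of these 12 genes, 8 had a higher and 4 a lower value, from -0.18 for Ly6c2 to 0.92 for Ctsg. Ctsg, a granule protease gene, read 7.58, 7.53 and 6.70 in Merit40-/-, against 6.11 to 6.78 in WT. On Merit40-/- replicate 2, Mpo, Elane, Prtn3, Itgam, Csf1r and Ly6c2 lay within their WT range. No gene of any marker list passed the adjusted threshold in limma, and the part of other cells in the telomere gene values was not tested. Merit40-/- replicate 2 was high in some granulocyte and monocyte genes, and its muscle mean of 4.826 lay slightly above the WT range. There Tnnt3 (6.38) and Acta1 (6.35) lay above their WT range, while Tnnc2, Tnni2 and Casq1 did not. On that array the median of the telomere genes was -0.07 from the WT mean. In bulk samples like these, a smaller share of a cell type and less transcript per cell cannot be told apart.

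Partners of the 10 genes were read from 4 lists of 70 measured genes in all. Of these, 0 passed the adjusted threshold in limma in either direction, 1 was higher and 2 were lower at an unadjusted p under 0.05 (2.26% and 1.96% of all genes), and 46 had a lower and 24 a higher value in Merit40-/-. Their arrays did not overlap for 1 gene in the higher and 4 genes in the lower direction, where 4.84% and 4.22% of all genes did not overlap.

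Genes for telomerase assembly and trafficking leaned to lower readings, none past the test: 14 of 17 had a lower value, with a median difference of -0.13. Over all genes, 51.5% had a difference above 0. The mean of the list from the WT mean was -0.132, -0.152 and 0.032 in Merit40-/- replicates 1, 2 and 3. In WT replicates 1, 2 and 3 it was 0.026, -0.011 and -0.015, so Merit40-/- replicate 3 was not low. Terc, the telomerase RNA that carries the repeat template, read 8.55, 9.13 and 9.21 in Merit40-/- HSCs, against 8.98, 9.11 and 9.29 in WT HSCs. Merit40-/- replicate 1 alone was low, and the difference was -0.17 (95% interval -0.61 to 0.27). Among the proteins that join dyskerin on the RNA, Gar1 differed by -0.18, Nop10 and Nhp2 each by -0.05 and the assembly factor Naf1 by -0.13. Wrap53, which brings telomerase to Cajal bodies, differed by -0.15. Parn, the nuclease that trims the tail of telomerase RNA, was the list's gene without overlap, with a difference of -0.15 (SE 0.12). The list's highest and lowest values were the dyskerin chaperone gene Shq1 at 0.34 (SE 0.28) and the Cajal body gene Coil at -0.28 (SE 0.19).

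The list of capping partners and end processing held the partner genes with the largest differences in each direction. Dclre1b encodes Apollo, a nuclease that TRF2 recruits to make the overhang of newly copied leading-strand telomeres. It read 8.08, 8.74 and 8.21 in Merit40-/- HSCs, against 7.95, 7.55 and 7.73 in WT HSCs. All Merit40-/- arrays lay above all WT arrays, at a difference of 0.60 (SE 0.19, 1.51-fold, unadjusted p = 0.0151), which did not pass over all genes (adjusted p = 0.999 with limma). Rpa3, the small subunit of replication protein A, which binds single-stranded DNA and competes with POT1 at telomeres, read 6.84, 7.05 and 7.03 in Merit40-/- HSCs, against 7.41, 7.48 and 7.40 in WT HSCs. All Merit40-/- arrays lay below all WT arrays, at a difference of -0.45 (SE 0.12, unadjusted p = 0.00444, adjusted p = 0.999 with limma). The 21 genes of this list were otherwise divided, with 9 higher, 12 lower and a median difference of -0.01.

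Of 25 helicase and repair genes that act at telomeres, 18 had a lower and 7 a higher value, with a median difference of -0.06. The mean of the list from the WT mean did not overlap between genotypes. It was -0.081, -0.040 and -0.108 in Merit40-/- replicates 1, 2 and 3, against 0.009, 0.019 and -0.028 in WT. No test was run on this mean. Mad2l2, a shieldin subunit that limits resection at breaks and at uncapped telomeres, read 8.83, 8.57 and 8.57 in Merit40-/- HSCs, against 8.92, 8.98 and 8.98 in WT HSCs. The arrays did not overlap, and the difference of -0.31 (SE 0.12, unadjusted p = 0.0356) did not pass over all genes (adjusted p = 0.999 with limma). Atm, the kinase that TRF2 holds in check, also showed no overlap, at -0.16 (SE 0.11). These were 2 of the 25 genes, where 4.22% of all genes were lower without overlap. The lowest value belonged to the recombination gene Rad54b at -0.39 (SE 0.18) and the highest to Xrcc5, of the Ku heterodimer, at 0.10 (SE 0.12). Of 7 meiotic telomere genes, 5 were higher and 2 lower in value, from -0.14 for Kash5 to 0.19 for Trip13.

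**Figure D4:**
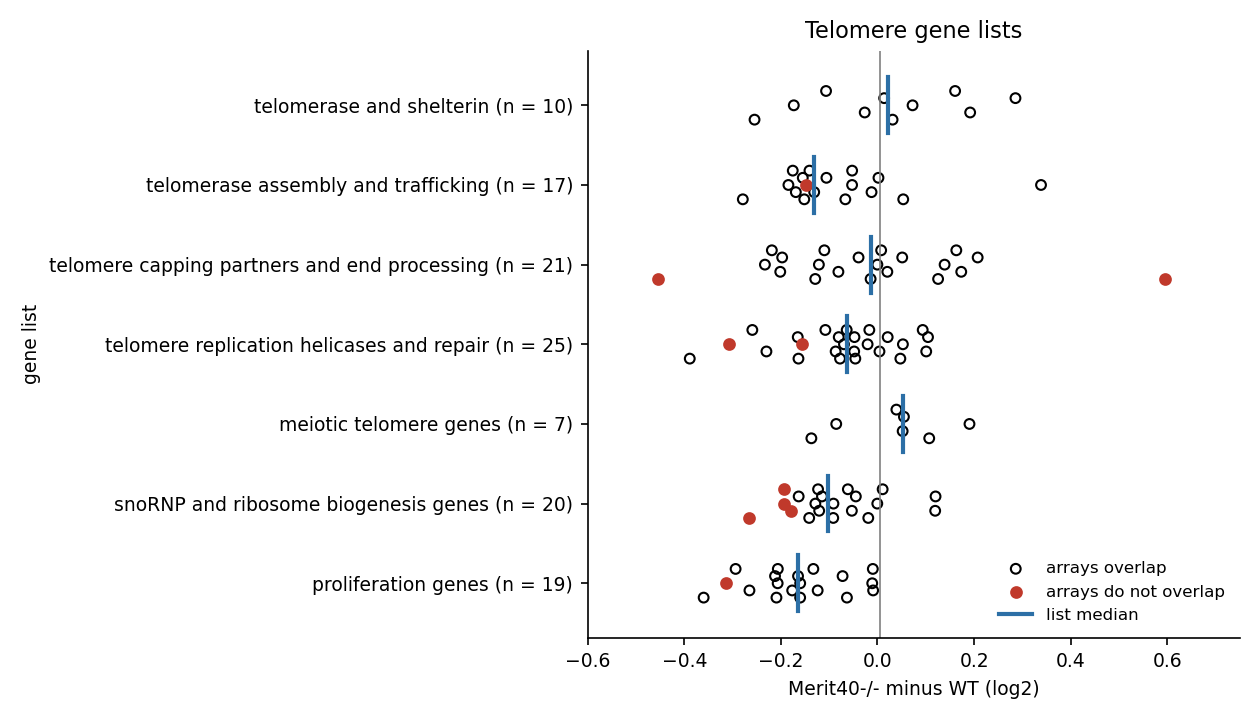
Difference between Merit40-/- and WT HSCs (log2, x axis) of each measured gene of the telomerase and shelterin set and of 6 further lists (y axis), with the list median as a blue bar and the median of all genes as a grey line. Filled red points mark genes whose arrays do not overlap between genotypes: 0 in the telomerase and shelterin set, and Dclre1b at 0.60 and Rpa3 at -0.45 among the capping partners.

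Growth-related lists that share biology with dyskerin and telomerase are given beside these values. Of 20 small nucleolar RNP and ribosome biogenesis genes, the MYC family among them, 17 had a lower and 3 a higher value, with a median difference of -0.10, and 4 (Nop58, Polr1b, Utp20 and Nop2) did not overlap, all lower. Over all genes, 4.22% were lower without overlap and 51.5% had a difference above 0. Myc, a transcription factor that can activate Tert and Dkc1, differed by -0.09 (SE 0.14) and Mycn by 0.12 (SE 0.13). All 19 measured proliferation genes had a lower value, with a median difference of -0.16, from -0.36 for the cyclin gene Ccnb2 to -0.01 for Ccne1, and Birc5, which acts in chromosome segregation, did not overlap (-0.31, SE 0.16). Their mean from the WT mean was -0.34, -0.01 and -0.15 in Merit40-/- replicates 1, 2 and 3, against 0.10, 0.02 and -0.12 in WT replicates 1, 2 and 3. The genotypes overlapped in this mean. In these lists 0 genes passed the test or had an unadjusted p under 0.05 in limma. On Merit40-/- replicate 1, the array lowest in proliferation genes, the median of the telomere set was 0.08 from the WT mean. Any part of proliferation in the telomere gene values, as a set or singly, was not tested.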

How the data were processed

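Total RNA of sorted HSCs was amplified with the NuGEN Pico kit and hybridised to Affymetrix GeneChip Mouse Gene 2.0 ST arrays, per the labels' protocols. Per the submitters' processing notes, the authors used RMA and the R package affy. Their deposited table gives a log2 expression value for each probe set on each array. Software versions, chip definition and build: not given in the sources used here. Scanner intensities were not analysed here.

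Probe sets were named by Entrez Gene number through the platform annotation and the reference gene table (GRCm38.p6). Of 25206 probe sets, 23185 had 1 symbol, 0 several and 2021 none. The 23185 genes were fitted with limma 3.58.1 under R 4.3.3 (eBayes on a fit with genotype alone, no filter on level, 2-sided, Benjamini-Hochberg adjustment over all of them, threshold 0.05). The procedure was tested on simulated data. Paralog pairs were compared with exact permutation tests. Pearson correlations between arrays, across all probe sets, were 0.984 to 0.988. They were lowest within Merit40-/- (0.9836 to 0.9849), against 0.9871 to 0.9884 within WT and 0.9853 to 0.9877 between genotypes. With so few arrays, precision is set by their number.

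The 10 genes, the other lists and the tests were chosen with earlier results of these data known. The text names all 10 genes and, of each telomere list, the highest and lowest members and up to 3 without overlap between genotypes. Terc, further partners of dyskerin, the MYC genes and the markers were named after their values were seen. Of 73 genes on the 4 telomere lists, 70 were measured. Alternatives tried were 3 scalings, 2 filters on dim genes, the inclusion of unnamed probe sets, array weights, an intensity trend in the variance, no moderation of the variance, the replicate number as a block, and leaving out each array. The labels do not say whether the replicate numbers pair the arrays, and they were not treated as pairs in the main fit.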

Additional observations from a re-analysis of the deposited data

How the results depend on the processing

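None of the 10 telomerase and shelterin genes, and none of the 70 partner genes, passed the threshold in limma under any of the 17 alternatives, of which 1 was added after seeing the data, and the smallest adjusted p of the 10 genes was 0.701 in limma. At an unadjusted p under 0.05 in limma there were 0 or 1 of the 10 genes and 2 to 5 of the 70 partner genes under each. The unmoderated per-gene test called 0 of all genes (990 at an unadjusted p under 0.05), with Babam1 at -3.94 and an adjusted p of 0.168. This test shares no variance between genes. Merit40-/- array 2 lacked the large muscle and osteoclast rises of the other Merit40-/- arrays, though it was high in some muscle, granulocyte and monocyte genes. The added alternative set only this array against the WT arrays. It assumes that this lone array varies like the WT arrays. It called 2 genes in limma, Babam1 and the microRNA gene Mir3079, gave a median difference of -0.0696 for the 10 genes, and turned Terf2ip to -0.150 and Pot1b to -0.0700. With 1 array left out in turn, Terf2ip ran from -0.11 to 0.22, Pot1b from -0.0616 to 0.119, Terf2 from -0.103 to 0.0289, and Pot1a minus Pot1b from -0.0615 (without WT replicate 1) to 0.25. The median difference of the 10 genes ran from -0.02 to 0.04. The other 7 genes kept their sign under all 17 alternatives, though Tinf2 and Dkc1 came as near to 0 as 0.000523 and -0.00673. The replicate block called 1 gene, Babam1, as did the fit without it, and left the paralog differences at 0.13 and -0.23. In an exact sign-flip test their p was 0.75 and 0.25, where 3 pairs cannot give less than 0.25. Deviations of arrays with the same number correlated at -0.05, -0.003 and 0.04 over all genes, so the numbers were not treated as pairs.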

Other observations

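Of the 10 genes, 3 lie on chromosome 8 with Babam1 in the reference gene table: Acd, Terf2 and Terf2ip. They are separated from Babam1 by many named genes (Acd is the 321st, Terf2 the 362nd and Terf2ip the 427th measured gene along from it). Their differences, at -0.11, -0.03 and 0.07, lay inside the range of the other 7 genes, which was -0.25 to 0.29.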
